A study of Mus musculus with 11 samples.

Results

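The genes described here are the 8 alpha subunits of the 20S proteasome, Psma1 to Psma8, and Psme4, which codes for the proteasome activator PA200. They were chosen by gene symbol, and all 9 were rows of the UMI table, of 20265 nuclear genes in all. The set had been proposed because Psma8 and Psma7 follow opposite courses in these cells, so the stage courses of the members are given as a description, without tests. As male germ cells went from spermatogonia into meiosis, Psma7 went from a mean of 290.0 to 13.1 CPM (UMIs of the gene per 1000000 autosomal UMIs) before Psma8 went from 73.1 to 861. Between these changes lay stages in which both were low.

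The proteasome is the protease that degrades proteins tagged with ubiquitin. Its 20S core is a barrel in which the outer rings are made of alpha subunits, which control entry, and the inner rings of beta subunits, which carry the proteolytic sites. Caps such as the 19S particle, PA28 and PA200 bind the alpha rings and open them. Psma7 and Psma8 code for versions of the same alpha position. The Psma8 protein is the version known from the testis, where the proteasome that holds it, with PA200 as a preferred activator, is needed for male meiosis.

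Single cells came from the adult testes of 3 Dazl-GFP mice, in which GFP reports Dazl, a gene of germ cells. Live GFP-positive cells were sorted into 384-well plates and the ends of their polyadenylated RNA were sequenced by SORT-Seq. In this method a unique molecular identifier (UMI) marks each captured molecule near its 3′ end, so a level does not scale with the length of a transcript. Mouse 1 was processed by CEL-Seq1 and mice 2 and 3 by CEL-Seq2, so a difference of mouse 1 from the others cannot be told apart from the protocol. No mouse was treated, the labels give no exact age, and the genotype beyond the reporter is not stated in them. Titles mark a library of mouse 3 as gate-sorted and its other library, like those of mice 1 and 2, as index-sorted. The replicate is the mouse (n = 3).

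A well counted as a cell from 1000 UMIs on, which left 545, 321 and 582 cells in mice 1, 2 and 3 with medians of 16275, 9830 and 14132.5 UMIs. Of these 1448 cells, 1184 fell in 13 stages, numbered along diffusion pseudotime. By its markers stage 1 held undifferentiated spermatogonia-like cells, and both stage 2 and stage 3 held differentiating spermatogonia-like cells. Cells of stages 7 to 10 were like those of leptotene and zygotene, when chromosomes pair, and stages 11 to 13 were pachytene-like, when pairing is complete. Stages 4 to 6 were left unnamed. The 6 markers of preleptotene cells, those about to enter meiosis, summed to 1247 CPM at stage 4 and 1675 at stage 5, below the 1776 of stage 2, and were highest at stage 6, with 3404. Stage 4 was led by Esx1 and genes of division such as Ccna2, and stage 5 by Esx1 and Rec8, a meiotic cohesin. Stage 6 was led by Stra8, a gene of meiotic entry, beside Clu and Prdm9, and 9 of its 82 cells were over a limit of 0.1% of UMIs from markers of somatic cells. The summed level of the 7 Sertoli cell markers, which include Clu, was 179 to 599.7 CPM at stage 6. It was 104.7 to 143.5 at stage 1, 73.2 to 241.6 at stage 5, 35.9 to 93.3 at stage 7 and 1.06 to 6.99 at stage 13. Amh was at 0 in each of these stages. Levels are CPM in the sum of the cells of a mouse and stage, given as the mean ± SD over 3 mice. The sums held from 106114 to 4870644 autosomal UMIs, the smallest at stage 7.

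Psma7 (ENSMUSG00000027566) lies on the minus strand of chromosome 2 at 180036374 to 180042433 (GRCm38), with 7 exons. Psma8 (ENSMUSG00000036743) lies on the plus strand of chromosome 18 at 14706151 to 14762301, also with 7 exons, and neither overlaps another annotated gene. Their coding sequences of 744 and 750 bases were identical at 74.9% of 744 aligned bases, the highest of the 28 pairs of alpha subunits. The next pair, Psma4 and Psma5, was identical at 61.3%. None of the 461 words of 40 bases in the last 500 transcript bases of Psma7 or of Psma8 occurred in the transcript of another gene, so reads from there tell the paralogues apart.

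Psma7, the paralogue of dividing and somatic cells, stood at 271.7, 293.0 and 305.2 CPM in mice 1, 2 and 3 at stage 1. It held that level through stage 4, where it was 239.96, 318.2 and 291.5. At stage 5 it was 190.4, 243.7 and 241.6, a range that overlapped that of stage 4. The level then dropped in 2 steps, each in 3 of 3 mice and each between ranges that did not overlap. Stage 6 held 67.5, 89.4 and 79.2 CPM. Stage 7 held 0, 9.33 and 29.95, which rested on 0, 1 and 5 UMIs. With a floor of 3 counts, mouse 1 was at least 9.61-fold lower at stage 7 than at stage 1. Neighbouring stages from 7 to 13 overlapped in range, and their means lay between 13.1 and 30.5.

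At stage 13 Psma7 stood at 26.5, 38.3 and 26.8 CPM, on 115, 36 and 111 UMIs. This was 9.64-fold below stage 1, a mean log2 ratio of -3.27 ± 0.30 (SD, n = 3). The transcript was low but present in the pachytene-like cells. Its level there was 10.5% of its highest mean, whereas the median of 10 markers of undifferentiated spermatogonia stood at 1.08% of their highest level and that of 9 markers of differentiating spermatogonia at 1.58%. Single markers of these lists stood above Psma7 there, with Id4 at 67.7%, Bcl6b at 25.7% and Dmrtb1 at 92.7%. At stage 7 Psma7 stood at 4.52%, beside 0 and 5.40% for the medians of these lists. Without the cells over the somatic limit, Psma7 at stage 6 was 71.0 ± 13.3, against 78.7 ± 10.97 with them.

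Psma8 was low from stage 1 to stage 7 and highest in pachytene-like cells. It was 42.7, 95.6 and 102 CPM at stage 1, and neighbouring stages up to stage 8 overlapped in range. Stage 8 held 75.5, 107 and 186 CPM. The next 3 steps each went up in 3 of 3 mice, between ranges that did not overlap. Stage 9 held 217, 238 and 352, stage 10 held 505, 462 and 645, and stage 11 held 741, 878 and 963. Stage 12, at 709, 841 and 856, overlapped with stage 11. Stage 13 was lower in 3 of 3 mice, at 578, 555 and 636, outside the range of stage 12.

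From stage 1 to stage 13 the level of Psma8 was 7.88-fold higher, a mean log2 ratio of 2.98 ± 0.68 (SD, n = 3). Mouse 1 gave 3.76, mouse 2 gave 2.54 and mouse 3 gave 2.64, and mouse 1 began from the lowest level. From stage 8 to stage 11 alone it was 7.46-fold higher. The early level stood beside that of other late genes. Psma8 at stage 1 was at 9.31% of its highest mean, and the median of 12 pachytene markers at stage 1 was 6.93% of theirs. Whether free RNA in the sorted suspension contributed to these early UMIs was not tested.

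**Figure D1:**
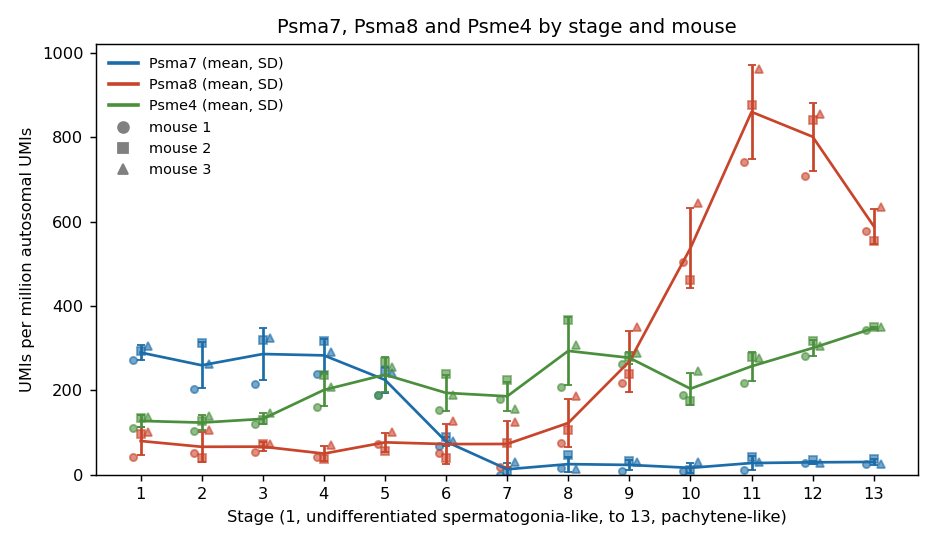
Levels of Psma7, Psma8 and Psme4 in CPM (vertical axis) at the 13 stages (horizontal axis); points are mice, lines are means and bars are SD over 3 mice. Psma7 drops from 225 at stage 5 to 13.1 at stage 7, and Psma8 climbs from 123 at stage 8 to 861 at stage 11, while Psme4 goes from 128 at stage 1 to 348 at stage 13.

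The share of Psma8 among the UMIs of the pair was high before its mean level was. The mean share was 21.1% ± 6.5 at stage 1 and 25.4% ± 5.7 just before the drop of Psma7, at stage 5. Stage 6 gave 43.3% for mouse 1 (exact 95% interval 25.5 to 62.6, counting error only), 30.8% for mouse 2 (14.3 to 51.8) and 61.6% for mouse 3 (50.5 to 71.9). By stage 7 the share had reached 89.9% ± 9.7. Between stages 5 and 7 Psma7 was lower in 3 of 3 mice, whereas Psma8 differed in direction: 73.2 against 18.8 CPM in mouse 1 (the latter on 2 UMIs), 56.7 against 74.6 in mouse 2 and 101 against 126 in mouse 3. The mean of Psma8 was 77.0 ± 22.3 at stage 5 and 73.1 ± 53.5 at stage 7. From stage 10 on the share lay between 93.5% and 98.4% in every mouse, and its mean was 95.04% ± 1.30 at stage 13. In the deposited read counts, which do not collapse copies of a molecule, the share at stage 1 was 9.67%, less than the UMIs gave. Psma7 had 5.01 reads per UMI and Psma8 2.95.

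**Figure D2:**
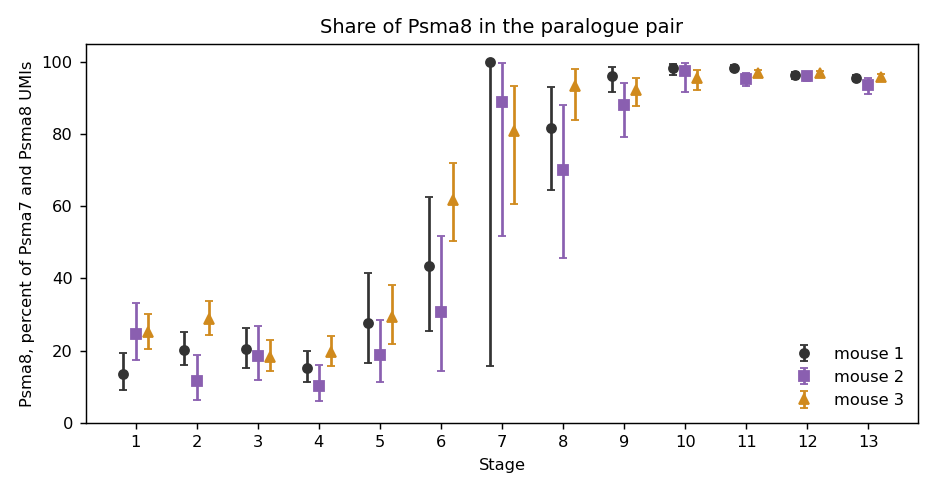
Percent of Psma7 and Psma8 UMIs that came from Psma8 (vertical axis) at each stage (horizontal axis) and mouse, with exact 95% binomial intervals. The share lies below 30% in all mice to stage 5, is spread from 30.8% to 61.6% at stage 6, and is over 93% from stage 10; at stage 7 the intervals are wide because the sums hold few UMIs of the pair.

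The summed level of the pair had its lowest point between the switches. From 370.1 ± 49.2 CPM at stage 1 and 302 ± 39 at stage 5 it came down to 86.2 ± 68.5 at stage 7. Stage 8 held 148 ± 54, stage 10 held 554 ± 106 and stage 11 held 889 ± 123. In a complete alpha ring the pair takes the same number of places as each other subunit, so the level of the pair can be set beside the mean of Psma1 to Psma6. This ratio began at 1.23 ± 0.10, stood at 0.566 ± 0.442 at stage 7 and reached 4.203 ± 0.560 by stage 12. In pachytene-like cells the RNA of this position thus stood above that of the other alpha positions, and at stage 7 the spread over mice was too wide to place it below them.

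In CPM the other alpha subunits fell into a group with a dip at meiotic entry and a pair without one. Psma2, Psma3, Psma4 and Psma7 had their lowest mean at stage 7, and Psma5 at stage 6. Psma2 (ENSMUSG00000015671) began at 336 ± 38 CPM, came down to 70.6 ± 17.4 at stage 7 and was back at 307 ± 16 by stage 10. It was higher in 3 of 3 mice at each step from stage 7 to stage 10, and the ranges of these neighbours did not overlap. Its last level, at stage 13, was 142 ± 24. Psma4 (ENSMUSG00000032301) went from 499 ± 49 at stage 1 to 137 ± 51 at stage 7, regained 311 ± 86 by stage 9 and ended on 198 ± 5. Psma4 was the alpha subunit with the highest level at stage 1. Psma5 (ENSMUSG00000068749) began at 409.5 ± 104.1, reached its low of 111 ± 15 at stage 6, then 331 ± 24 by stage 10, and ended on 183 ± 20. The step from stage 5 to stage 6 went down in 3 of 3 mice without overlap in range for Psma1, Psma2, Psma3, Psma4, Psma5 and Psma7. The share of all genes that did the same at this step was not counted, so it cannot be read as particular to these members.

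Psma3 (ENSMUSG00000060073) shared the dip but ended above its start. From 240.2 ± 27.4 it came to 169 ± 29 at stage 7, climbed to 486 ± 30 by stage 10 and ended on 299 ± 13. Among the members its course was the one most like that of Psma8, with a mean Pearson r of 0.65 over the 13 stages in 3 mice, and Psma4 was the one most like Psma7, with 0.83. Psma7 and Psma8 had an r of -0.54. These correlations share libraries and depth and are descriptions. Psma1 (ENSMUSG00000030751) had no lasting dip: it began at 144 ± 12, held 212 ± 37 at stage 7, peaked with 281 ± 24 at stage 10 and ended on 94.6 ± 19.2, each step after stage 10 being down in 3 of 3 mice without overlap. Psma6 (ENSMUSG00000021024) varied least. Its highest mean was 1.58 times its lowest, and every neighbouring pair of its stages overlapped in range.

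**Figure D3:**
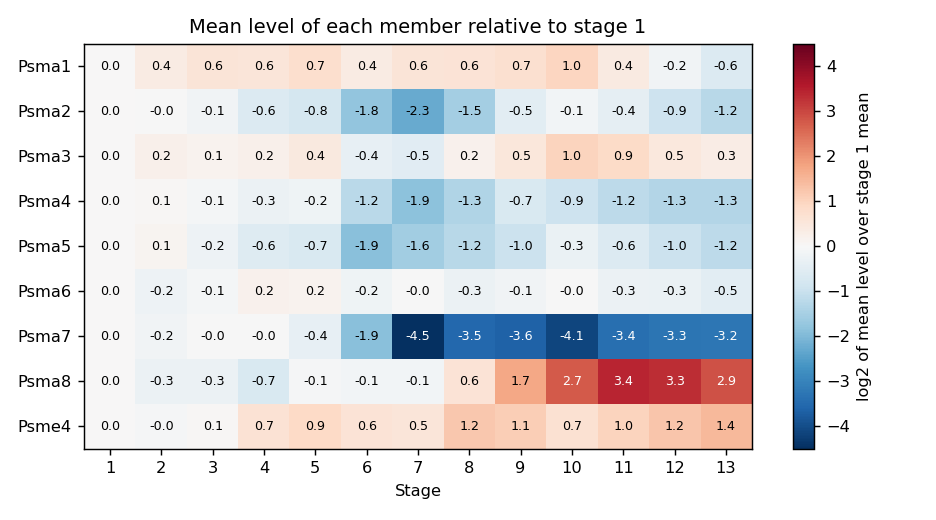
Mean level of each of the 9 members at each stage (horizontal axis), as the log2 of its ratio to the mean at stage 1 (colour and printed value). Psma2, Psma4 and Psma5 are below their start from stage 3 to stage 13 with the deepest values at stages 6 and 7, Psma7 stays low after its drop, and Psma8 is above its start from stage 8.

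Counting may have touched some of these values. For Psma5, 69.8% of the 40-base words in the last 500 transcript bases also occurred in the pseudogenes Gm12989 and Gm8394, and for Psma4 14.8% occurred in Gm6542. For Psma2 it was 1.08%, and for all other members 0. How the authors assigned reads that fit several genes is not given in the sources used here, so the levels of Psma5 and Psma4 are uncertain. Psma2 also overlaps AW209491 on the same strand.

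The promoters of Psma2, Psma3, Psma4 and Psma7 are shown because these members shared the lowest mean at stage 7. They come from RefSeq (GRCm38.p6), from 250 bases before to 50 after the start of the gene. RefSeq promoters matched 8 of the 9 members, with 2 for Psma6 and none for Psma8. Capitals mark the letters GCGCA, any base, then GCGC, a core of the binding motif of NRF1, a factor of nuclear genes for mitochondria and other housekeeping genes. They were searched on both strands, and the motif was picked after the sequences had been read.
Psma2, chr13:14612992-14613291, plus strand: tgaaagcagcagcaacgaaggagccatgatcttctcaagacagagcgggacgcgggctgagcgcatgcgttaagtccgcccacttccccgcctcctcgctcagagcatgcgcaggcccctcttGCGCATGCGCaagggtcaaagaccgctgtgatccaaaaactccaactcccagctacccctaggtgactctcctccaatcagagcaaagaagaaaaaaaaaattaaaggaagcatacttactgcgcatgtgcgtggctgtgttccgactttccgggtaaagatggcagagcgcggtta
Psma3, chr12:70974373-70974672, plus strand: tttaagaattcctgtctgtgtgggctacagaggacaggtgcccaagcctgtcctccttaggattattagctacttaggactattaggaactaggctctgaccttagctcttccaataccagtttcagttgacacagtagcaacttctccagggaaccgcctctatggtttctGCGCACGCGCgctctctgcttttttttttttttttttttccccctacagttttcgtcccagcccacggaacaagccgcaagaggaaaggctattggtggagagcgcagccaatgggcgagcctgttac
Psma4, chr9:54950609-54950908, plus strand: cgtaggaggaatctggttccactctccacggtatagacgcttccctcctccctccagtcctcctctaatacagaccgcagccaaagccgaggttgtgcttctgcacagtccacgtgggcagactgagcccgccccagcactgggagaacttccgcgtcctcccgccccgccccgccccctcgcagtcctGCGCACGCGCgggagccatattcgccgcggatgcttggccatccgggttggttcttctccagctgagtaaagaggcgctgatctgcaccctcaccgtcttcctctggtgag
Psma7, chr2:180042415-180042714, minus strand: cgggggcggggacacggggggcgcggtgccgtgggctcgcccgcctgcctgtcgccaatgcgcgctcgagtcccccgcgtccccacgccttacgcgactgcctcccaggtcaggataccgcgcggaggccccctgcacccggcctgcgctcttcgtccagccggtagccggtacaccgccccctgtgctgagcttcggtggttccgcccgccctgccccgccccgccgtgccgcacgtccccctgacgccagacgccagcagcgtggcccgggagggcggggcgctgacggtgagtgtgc

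The letters were found in Psma2, Psma3 and Psma4, with starts at -127, -78 and -61 from the start of the gene, and in none of the other 5 members with a promoter. In Psma2 the match reads the same on both strands. Of 32851 RefSeq promoters of this length, 4.60% held them. Other patterns were searched on both strands as well. The CCAAT box (CCAAT) was in promoters of 5 members, against 37.4% of all promoters. The antioxidant response element (TGACNNNGC), bound by Nfe2l1 and Nfe2l2, was in 1, that of Psme4, against 12.4%. The cAMP response element (TGACGTCA) was in 0, against 1.79%. A match is a run of letters and not a measured site.

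Psme4 (ENSMUSG00000040850), on the plus strand of chromosome 11 at 30771726 to 30880361 with 47 exons, codes for PA200, a large single-chain cap of the 20S core. It was 111, 136 and 137 CPM in mice 1, 2 and 3 at stage 1, and 344, 349.7 and 349.9 at stage 13. These ranges were far apart, with a level 2.73-fold higher and a mean log2 ratio of 1.45 ± 0.16 (SD, n = 3). In CPM the climb began by stage 4, with 201 ± 39 at stage 4 against 133 ± 13 at stage 3, higher in 3 of 3 mice without overlap. It was 294 ± 81 at stage 8, when Psma8 was 123 ± 57. At stage 10, when Psma8 was at 538 ± 96, Psme4 had gone down to 204 ± 38, and it then went up at each step to stage 13 in 3 of 3 mice. In CPM Psme4 was highest at stage 13, when Psma8 was already past its highest mean at stage 11. Its course had an r of 0.62 with Psma8 over the 13 stages (mean over 3 mice).

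The edgeR fit over all genes gave log2 changes from stage 1 to stage 13 of -2.97 ± 0.19 (SE) for Psma7, 3.28 ± 0.21 for Psma8 and 1.78 ± 0.13 for Psme4. The fitted changes of the 9 members lay 0.29 to 0.37 above the log2 ratios of their levels, since the fit scales libraries by TMM and not by total. All 9 members passed the filter on low counts. Their median fitted change was -0.25, with 3 above 0 and 6 below 0, beside a median of -0.11 over 11015 genes. Of all genes, 74.9% were called changed in this comparison at an adjusted p under 0.05, so the size of a change says more here than a call. Psma2, Psma4 and Psma5 had fitted changes of -0.90 ± 0.13, -0.99 ± 0.15 and -0.82 ± 0.16, and Psma3 of 0.66 ± 0.13. Psma1 and Psma6, at -0.25 ± 0.15 and -0.12 ± 0.16, were within 2 SE of 0.

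Levels in CPM are shares of the RNA of a cell, and that RNA was far from constant. Set against the ERCC RNA spiked into each well, nuclear UMIs were lower than at stage 1 by a log2 of -1.98 ± 0.39 at stage 8 and higher by 1.67 ± 0.47 at stage 13. Per ERCC UMI, Psma7 was lower at stage 13 by a log2 of -1.57 ± 0.31, which is 2.96-fold, and Psma8 was 25.6-fold higher, at 4.68 ± 0.67. Psme4 was 8.90-fold higher. From stage 11 to stage 12 Psma8 did not decline on this scale, with log2 values of 4.25 ± 0.56 and 4.79 ± 0.39. Its mean of 4.68 ± 0.67 at stage 13 lay within the spread of stage 12. From stage 12 to stage 13 Psma8 was higher in mouse 1, with 1476 UMIs beside 6640 of ERCC and then 2509 beside 10191. It was lower in mouse 2, with 1206 beside 11342 and then 522 beside 6489. Mouse 3 was lower as well, with 4168 beside 42809 and then 2637 beside 28252. The mean decline of Psma1, Psma2, Psma4, Psma5 and Psma6 from stage 1 to stage 13 was on the CPM scale alone. Per ERCC UMI their mean log2 ratios were positive, at 1.08 ± 0.51 for Psma1 and 1.24 ± 0.53 for Psma6. Those of Psma2, Psma4 and Psma5, at 0.45 ± 0.43, 0.37 ± 0.57 and 0.56 ± 0.62, were close to or below their SD. In mouse 2 ERCC UMIs went from 5902 to 6489, while Psma4 had 180 and then 181 UMIs and Psma5 170 and then 169. Neither was higher in that mouse. Psma3 was higher on both scales, by 0.32 ± 0.21 in CPM and 2.02 ± 0.48 per ERCC UMI. Psma1 and Psma6, the pair without a dip in CPM, were lower per ERCC UMI at stage 7 than at stage 1 in every mouse. In mouse 3, Psma1 had 123 UMIs beside 25181 of ERCC at stage 1 and 39 beside 13240 at stage 7. Psma6 had 151 and then 33 UMIs there. The gap between both switches was deeper on this scale. At stage 8 Psma7 was 53.4-fold and Psma8 2.595-fold below stage 1. The mean of Psma8 was first above its start at stage 9, by a log2 of 0.60 ± 0.65, and by 2.32 ± 0.90 at stage 10. In mouse 2 Psma8 was not yet higher at stage 9, with 74 UMIs beside 14485 of ERCC, against 31 beside 5902 at stage 1.

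**Figure D4:**
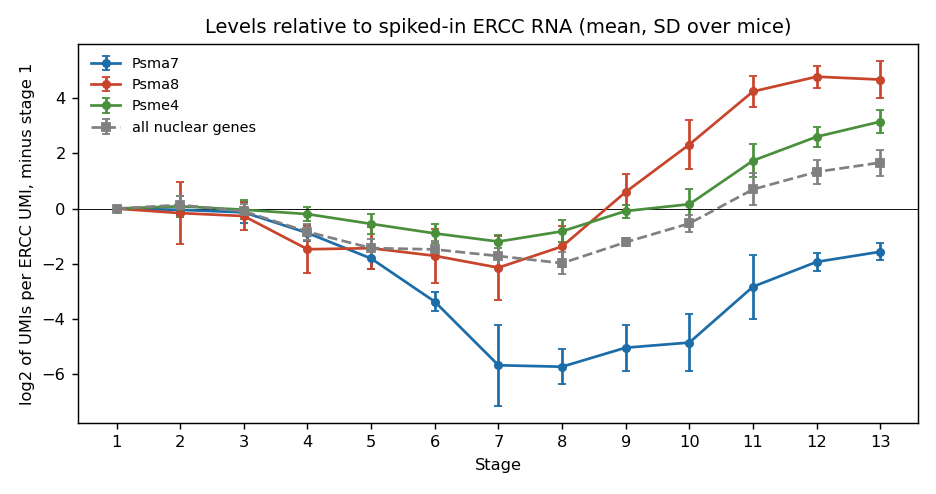
UMIs per ERCC UMI as log2 differences from stage 1 (vertical axis) at each stage (horizontal axis) for Psma7, Psma8, Psme4 and all nuclear genes, as mean and SD over 3 mice (over the 2 mice with UMIs for Psma7 at stage 7). Nuclear RNA dips to -1.98 at stage 8 and ends at 1.67; Psma7 stays below its start throughout, and Psma8 ends at 4.68.

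Cells with UMIs of both paralogues were few at equal depth. Each cell was thinned to 2000 UMIs, which left out 22 shallower cells of stages 5 to 10. At stage 2, 12.3% of 73 cells then had both, 56.2% had Psma7 and 20.5% had Psma8. At stage 6, 0 of 81 cells had both, with 19.8% for Psma7 and 14.8% for Psma8, and 65.4% had neither. At stage 7, 89.8% of 49 cells had neither, 10.2% had Psma8 and 0 had Psma7, so both transcripts were under detection at this depth in most cells. At stage 12, 84.5% of 110 cells had Psma8, 6.36% Psma7 and 4.55% both. Without thinning, 20.7% of cells had both at stage 6 and 88.4% at stage 13, where the median cell had 89393 UMIs against 10681.5 at stage 6. The share of cells with both was 7.02% at stage 1 and 5.26% at stage 13, where the product of the separate shares was 8.13% and 4.58%. It was below the product at stage 4, with 1.45% against 3.39%, at stage 5, with 2.50% against 6.09%, and at stage 6, with 0 against 2.93%. At stage 8 it was above, with 1.98% against 0.98%. Each of these shares rested on at most 2 cells with both, and the differences were not tested. The direction at stage 4 depended on depth. With cells thinned to 1000 UMIs it was 2.17% against 1.32% there, on 3 cells with both, and 1.22% against 1.77% at stage 5, on 1 cell.

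Genes with a course like that of a member were ranked among 8030 genes by the mean over mice of Pearson's r of log2(level + 1) over the 13 stages. Those most like Psma8 were Cers3 (0.96), Cox6b2 (0.96), Atxn2l (0.96), Fyttd1 (0.96) and Ddx19b (0.96). Cers3, a ceramide synthase, was 35.5 ± 31.3 CPM at stage 1 and 659 ± 96 at stage 13, and Cox6b2, the testis form of a cytochrome oxidase subunit, 61.9 ± 6.1 and 794 ± 50. Those like Psma7 included Mapre2 (0.94), Gsr (0.94), Thap11 (0.93) and Arhgdig (0.93). Gsr, the glutathione reductase, went from 248 ± 51 to 3.99 at stage 7 and 4.39 ± 3.03 at stage 13, a lower end than that of Psma7. Those most like Psme4 were Slain2 (0.92), Snx25 (0.90), Abhd17b (0.87), Odc1 (0.86) and Catsper2 (0.86).

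The other genes of the proteasome were taken from lists of 55 symbols, of which 53 were in the table and 50 passed the filter on low counts. From stage 1 to stage 13, 10 of the 50 rose and 24 fell (edgeR quasi-likelihood test, Benjamini-Hochberg adjusted p under 0.05 over 11015 genes). Over all genes tested, 35.3% rose and 39.6% fell, with a median log2 change of -0.11 against -0.17 for the 50. These changes are relative to the RNA of a cell, which per ERCC UMI was higher at stage 13 by a log2 of 1.67 ± 0.47. A gene that fell here was thus not always lower per ERCC UMI. Psmb5 fell but was higher on that scale in every mouse, with 208 UMIs beside 3804 of ERCC and then 869 beside 10191 in mouse 1. The stage 7 trough was then compared with both ends, a comparison picked after the levels had been seen. From stage 1 to stage 7, 6 rose and 30 fell, against 19.5% and 29.3% of all genes, with medians of -0.83 for the lists and -0.33 for all genes. From stage 7 to stage 13, 23 rose and 9 fell, against 33.2% and 24.6% of all genes.

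The 7 beta subunits of the constitutive core, partners of the alpha rings, were lower at stage 7 than at stage 1, as Psma2 to Psma5 were. All 7 fell from stage 1 to stage 7, with a median log2 change of -1.19. Of these, 4 rose again from stage 7 to stage 13, namely Psmb3, Psmb5, Psmb6 and Psmb7. Psmb1, Psmb2 and Psmb4 were not called in that step, and their means were lower still at stage 13. They were 254, 85.3 and 479 CPM at stage 7 and 241, 53.8 and 378 at stage 13. Psmb5, which carries the chymotrypsin-like site, was 355, 271 and 337 CPM in mice 1, 2 and 3 at stage 1, 104, 55.96 and 59.9 at stage 7, and 200.2, 163 and 194 at stage 13. Its log2 change was -2.19 ± 0.26 (SE; edgeR adjusted p = 4.84e-09) to stage 7 and 1.73 ± 0.27 (4.35e-07) from there on. From stage 1 to stage 13, 5 of 7 fell and 0 rose. The calls of Psmb3, Psmb4 and Psmb5 differed in 1, 4 and 6 of 17 alternative settings. The largest changes were those of Psmb2 (-1.52 ± 0.17, edgeR adjusted p = 6.6e-11), Psmb1 (-0.97 ± 0.12, 3.6e-09) and Psmb3 (-0.79 ± 0.16, 2.74e-05), each lower in 3 of 3 mice. Summed over the 7, the level began at 2938 ± 345 and stood at 1391 ± 112 at stage 7. It was lowest at stage 8, with 1321 ± 198, and ended on 1664 ± 94. None of these 7 was above its start at stage 13 by the test, where Psma8 was 7.88-fold above its own.

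The PA28 cap genes were lower late, where Psme4 was highest. Psme1 and Psme2, the subunits of the PA28 activator of immune proteasomes, had the largest falls of all the lists. Psme1 was 319.5, 259 and 272 CPM at stage 1 and 2.07, 2.13 and 2.41 at stage 13, a log2 change of -6.58 ± 0.29 (edgeR adjusted p = 8.12e-23). Psme2 was 255, 247 and 252 at stage 1 and 2.996, 1.06 and 2.17 at stage 13, a change of -6.28 ± 0.25 (4.05e-24). Both were lower in 3 of 3 mice, and both had fallen already at stage 7, with log2 changes of -3.94 and -3.27. Psme3, the nuclear form of PA28, fell by 1.06 ± 0.14 (edgeR adjusted p = 7.94e-09), and Psmf1, an inhibitor of the core, rose by 0.58 ± 0.17 (0.00295). The call of Psmf1 differed in 3 of 17 alternative settings.

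Of the catalytic subunits of the immunoproteasome and thymoproteasome, Psmb10 fell, with a log2 change of -4.05 ± 0.27 (edgeR adjusted p = 1.04e-16), from 187 ± 21 to 8.42 ± 2.10 CPM. Psmb9, at 14.8 ± 5.2 at stage 1, and Psmb8, at 2.73 ± 2.57, had 0 UMIs at stages 7 and 13 and too few counts for the test. Psmb11 was at 0.43 ± 0.42 (adjusted p = 0.364), with 37.6 CPM in mouse 1 and 3.08 and 7.66 in mice 2 and 3 at stage 1. Of 7 markers of macrophages and other immune cells 4 were in the table, with a summed level of at most 9.66 CPM in any mouse and stage. Lyz2 was at 0 at stage 1 and Cd74 at stages 1 and 13.

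The 19S particle, which recognises and unfolds tagged proteins, went in both directions. Of its 6 ATPases, Psmc2 (1.12 ± 0.13, edgeR adjusted p = 7.26e-10) and Psmc3 (1.04 ± 0.13, 1.22e-09) rose to stage 13, each in 3 of 3 mice. Psmc1 (-0.65 ± 0.14, edgeR adjusted p = 0.000115), Psmc6 (-0.61 ± 0.13, 5.55e-05) and Psmc5 (-0.40 ± 0.15, 0.014) fell. Their calls differed in 1, 2 and 5 of 17 alternative settings. Psmc6 was highest at stage 7, when Psma7 was lowest, with 336 ± 77 CPM against 224 ± 38 at stage 1. Of the 13 non-ATPase genes tested, 3 rose and 3 fell. Psmd8, a lid subunit, rose by 1.82 ± 0.15 (edgeR adjusted p = 1.11e-14), from 104, 200.5 and 181 CPM in mice 1, 2 and 3 to 395, 473 and 460.1. Psmd6, also of the lid, rose by 1.05 ± 0.13 (3.1e-09), and Adrm1, a ubiquitin receptor, by 0.35 ± 0.15 (0.0326), the latter higher in 1 of 3 mice in CPM and not called in 11 of 17 alternative settings. Psmd7 (-0.98 ± 0.14), Psmd11 (-0.71 ± 0.19) and Psmd1 (-0.49 ± 0.15) fell, with edgeR adjusted p = 2.21e-08, 0.000713 and 0.00238. The call of Psmd1 differed in 4 of 17 alternative settings, and those of Psmd7 and Psmd11 in none.

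**Figure D5:**
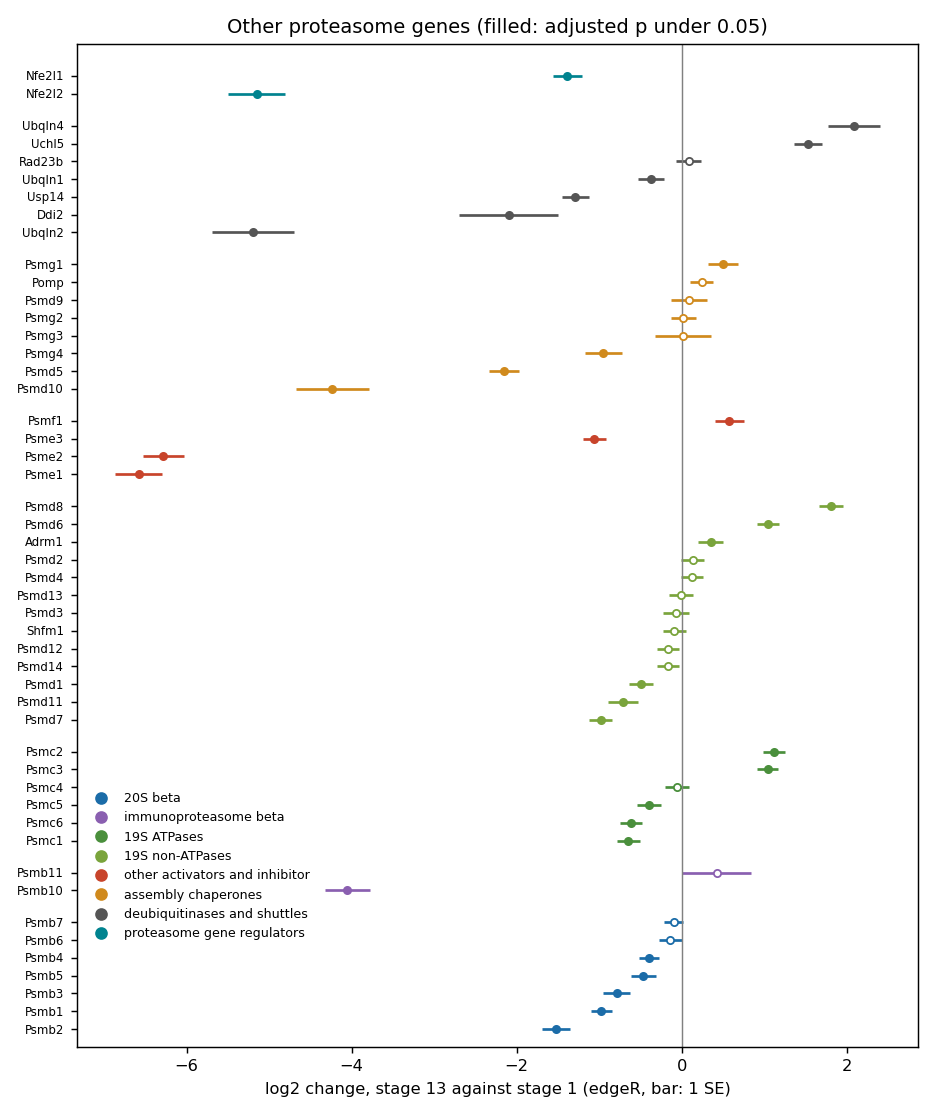
Log2 change from stage 1 to stage 13 (horizontal axis) of 49 tested proteasome genes outside the members, grouped by list, with bars of 1 SE from edgeR and filled points for an adjusted p under 0.05. Psme1 and Psme2 lie farthest to the left at -6.58 and -6.28, the beta subunits lie between -1.52 and -0.10, and Ubqln4, Psmd8 and Uchl5 lie farthest to the right.

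Assembly factors and partners of the proteasome completed the lists. Of the 8 assembly chaperones tested, Psmg1 rose (0.50 ± 0.18, edgeR adjusted p = 0.0111, higher in 2 of 3 mice) and Psmd10 (-4.23 ± 0.45, 2.56e-11), Psmd5 (-2.15 ± 0.18, 3.1e-14) and Psmg4 (-0.95 ± 0.22, 0.000221) fell. The calls of Psmg1 and Psmg4 differed in 4 and 1 of 17 alternative settings. Psmd10 lies on the X chromosome. Pomp, the maturation factor of the core, was named after its values had been seen. It was 217, 265 and 298 CPM at stage 1, 47.1, 37.3 and 53.9 at stage 7, and 298, 264 and 194 at stage 13, with log2 changes of -2.46 ± 0.27 (edgeR adjusted p = 3.67e-10) and then 2.70 ± 0.26 (3.89e-12). Of the deubiquitinases and shuttle factors, which trim or carry ubiquitin chains, Ubqln4 (2.09 ± 0.32, 1.75e-07) and Uchl5 (1.53 ± 0.17, 1.24e-10) rose, each in 3 of 3 mice (edgeR adjusted p). The X-linked Ubqln2 fell by 5.19 ± 0.50 (edgeR adjusted p = 1.72e-12), and Usp14, a deubiquitinase of the 19S particle, had a change of -1.29 ± 0.16 (3.31e-09). Ddi2 was called lower (-2.10 ± 0.60, 0.00203), but all of its UMIs at stages 1 and 13 came from mouse 1, and the sign turned in 1 of 15 settings.

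In CPM the regulators of proteasome genes were low late. Nfe2l1, which raises proteasome genes when the proteasome is inhibited, fell by 1.39 ± 0.18 (edgeR adjusted p = 2.99e-09), from 99.1, 157 and 140.5 CPM at stage 1 to 38.0, 41.5 and 38.6 at stage 13. Nfe2l2, the regulator of the antioxidant response, fell by 5.15 ± 0.35 (4.92e-17), from 71.2 ± 29.6 to 1.74 ± 0.51. In CPM both were lower in 3 of 3 mice, and both had fallen at stage 7, with changes of -1.05 ± 0.29 and -1.66 ± 0.47. Per ERCC UMI, Nfe2l1 differed in direction from stage 1 to stage 13. Mouse 1 had 58 UMIs beside 3804 of ERCC and then 165 beside 10191, and mouse 3 had 110 beside 25181 and then 160 beside 28252. Mouse 2 had 51 beside 5902 and then 39 beside 6489. Nfe2l2 was lower per ERCC UMI in every mouse, with 40, 14 and 80 UMIs at stage 1 and 5, 2 and 8 at stage 13.

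The members were also present in wells and cells outside the stages. Wells of at least 500 UMIs but under the minimum held 72.9 CPM of Psma7 and 448 of Psma8, and wells of at least 1000 but under 1500 UMIs held 70.1 and 370.3, on 7 UMIs of Psma7 in each. Cluster 16, with 25 pachytene-like cells of which 22 came from mouse 1, had 23.5 of Psma7 and 721 of Psma8. Cluster 6, with 93 pachytene-like cells of low depth, had 36.2 and 816. Cluster 10, with 71 shallow differentiating spermatogonia-like cells, had 133 (exact 95% binomial interval 85.2 to 198, counting error only) and 127 (80.8 to 191). Cluster 13, with 63 shallow cells of no name, had 45.2 and 323.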

How the data were processed

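SORT-Seq libraries of sorted single testis cells of 3 mice were analysed; BWA 0.7.10 and mm10 are named in the submitters' processing notes, and the annotation and counting tool are not given in the sources used here. The authors deposited per well the UMI counts and read counts of each gene, and transcripts, which the values show to be estimated counts (UMI counts with a correction for collisions). The transcripts were rounded to whole numbers first. In mouse 1 their columns stood in another order and were matched by profile (768 of 768 reciprocal matches, lowest r 0.973). ERCC, mitochondrial, eGFP and Rn45s rows stayed out of totals. Barcodes of CEL-Seq plates recur between plates by design, and column names do not separate the libraries of mouse 1.

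A minimum of 1000 UMIs kept a well. Stages were built with Seurat 5.3.0 and scanpy 1.11.5 from genes of odd-numbered autosomes without any proteasome gene (1500 variable genes, 15 components, 15 neighbours, Leiden resolution 1). A stage needed at least 10 cells in each of 2 mice and a median depth of at least 1/3 of that of all kept cells. Scrublet called 12 doublets, which were kept. UMIs were summed per mouse and stage and tested with edgeR 4.0.16 (quasi-likelihood, TMM, mouse as block since the same animals give every stage), checked on simulated data. DESeq2 1.42.0 was an alternative.

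The members, lists and marker lists were chosen with earlier results of these data known. Named were all 9 members, the 3 genes called higher and the 3 called lower with the largest change in each list, and the 5 genes most like Psma7, Psma8 and Psme4 among genes with a mean of at least 20 CPM. Of the genes this rule gives, 2 are not reported here. Clusters kept out of the stages were described, not tested.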

Additional observations from a re-analysis of the deposited data

Results flagged for a closer look

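Signal of the paralogues also appeared in wells that entered no comparison. In wells under 1000 UMIs, Psma8 was at 366 CPM in mouse 1 (exact 95% binomial interval 250.2 to 516, counting error only), 387 in mouse 2 (200.2 to 677) and 599.9 in mouse 3 (418 to 834), above the 34.3, 96.9 and 51.4 that a floor of 3 counts allows. These values rest on 32, 12 and 35 UMIs. In 12 cells outside the stages whose leading genes were protamines (elongating spermatid-like), Psma7 was at 220.4 CPM (162 to 293) and Psma8 at 183 (130.03 to 250), on 47 and 39 UMIs and against a floor of 14.1. No mouse gave 10 of these cells, so no spread over mice can be given.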

How the results depend on the processing

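Of the 50 other proteasome genes, 7 to 15 were called higher and 16 to 28 lower over 17 alternatives, each within 1.5 times of 10 and 24. Leaving out each mouse in turn gave 9 to 9 higher and 20 to 23 lower, and the fit with no replicate block (no mouse term) gave 7 and 20. Without mouse 2 the fitted change of Psma5 was -0.59. For Psma7 the fitted change lay between -3.19 and -2.86 and for Psma8 between 3.06 and 3.89; without each mouse in turn they were -3.08 to -2.86 and 3.06 to 3.46, and with no replicate block -2.93 and 3.22. Per ERCC UMI the mean log2 ratios were -1.57 for Psma7 and 4.68 for Psma8. The sign of the mean turned for Psma1 (1.08), Psma2 (0.45), Psma4 (0.37), Psma5 (0.56) and Psma6 (1.24). On that scale nuclear UMIs as a whole were higher at stage 13 by a log2 of 1.67 ± 0.47. The fitted changes of Psma1 and Psma6 also turned sign with reads (0.10 and 0.11) and at Leiden resolution 0.6 (0.19 and 0.016), and that of Psma1 without alignment (0.09). The share of Psma8 was 9.67% at the earliest and 93.7% at the latest stage with reads, 96.5% at the latest stage without alignment and 96.4% at Leiden resolution 0.6; the cause was not tested. Without each mouse in turn it was 19.1% to 24.8% and 94.6% to 95.8%. Without the gate-sorted library of mouse 3 it was 20.5% and 94.6%, the latter over 2 mice and equal to the value without mouse 3. At the latest stage mouse 3 thus rested largely on that library, and stage and library cannot be told apart in it there. Thinned to 1000 UMIs, 1.05% of stage 13 cells had both paralogues, since fewer UMIs are read. Median-ratio size factors moved the median of all genes by 0.16, from -0.11 to -0.27 (log2). At stage 7, 6 Psma7 UMIs in all limit its level.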
